A study of Homo sapiens with 2 samples.

Results

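The 47 genes described here carry out or license chromosomal DNA replication or supply it with nucleotides and histones. They were chosen by name as 8 groups of roles, which run from the origin recognition complex to the histone chaperone that follows the fork. A gene counted as present when a noncontrol probe carried one of its RefSeq accessions, and all 47 had such a probe among 19061 named genes on the array. RNA came from SBC-3, an established adherent cell line of small-cell lung cancer (SCLC), after transfection of 1 of 2 small interfering RNAs (siRNAs). One culture received #1 siHOTAIR, which targets the long noncoding RNA HOTAIR, and the control culture received siGFP, which targets green fluorescent protein. Each condition was measured on 1 one-colour Agilent expression array, in 1 cell line and with 1 siRNA against HOTAIR. There were no replicates, so no p-value can be given, and the effects of culture and array cannot be told apart from that of the siRNA. How long after transfection the RNA for the arrays was taken is not given in the sources used here.

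Each chromosomal origin is licensed in G1, when the origin recognition complex, CDC6 and CDT1 load the ring-shaped MCM2-7 helicase onto DNA. At the onset of S phase, kinases add CDC45 and GINS to the ring, and the primase, the sliding clamp PCNA and the replicative polymerases copy the strands that it opens. Many of these genes are transcribed in waves under E2F factors, which the retinoblastoma protein RB restrains. RB is lost in most SCLC, a fast-growing tumour in which replication genes are typically abundant.

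HOTAIR, the targeted RNA, was read from 1 spot. Its signal was 108 with #1 siHOTAIR and 244 with siGFP. After scaling of each array to its 75th percentile, the log2 ratio of #1 siHOTAIR over siGFP was -1.22 with a measurement SD of 0.21, or 42.8% of the siGFP level. The measurement SD was taken from probes that were printed as 10 spots on each array. It covers error within an array only, not variation between cultures.

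The arrays lay on the same slide and had the same scan time. The 75th percentile of the signal was 650 with #1 siHOTAIR and 630 with siGFP, and 55.5% and 58.3% of the respective spots were well above background. Of 9 neuroendocrine markers, 4 were counted as well above background on 1 or both arrays (NEUROD1, CHGA, NCAM1 and ENO2). INSM1, SYP, UCHL1, DDC and GRP were not. NCAM1 passed with #1 siHOTAIR only, at an average of 25.5, below the lowest signal well above background there (37.3). Its other probes were well above background on neither array. The summed signal of the 9 was 1009 with #1 siHOTAIR and 1212 with siGFP. Of 4 epithelial markers, 3 passed the same rule (summed signals 3274 and 3154), against 2 of 3 leukocyte markers (215 and 143) and 1 of 3 fibroblast markers (850 and 428). Among the epithelial ones, EPCAM passed with siGFP only, at an average of 25.1, below the lowest signal well above background there (28.6). CDH1, CD3E, COL3A1 and PDGFRB were well above background on neither array. The part of other cell types in the results below was not tested.

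Both arrays detected all 47 replication genes well above background. They were represented by 60 probes and 143 spots, and none of the probes was marked as saturated. The signal of a gene's brightest probe ranged from 136 to 54237 with #1 siHOTAIR and from 122 to 59074 with siGFP. That probe is the one reported for each gene unless another is named. It had 2 spots for 37 genes and 1 spot for GINS1, GINS4, DBF4, POLA2 and PRIM2. For ORC6, GINS2, PCNA, PRIM1 and CHAF1B it was printed as 10 spots, some of which were left out as outliers for ORC6 and GINS2.

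The replication genes were slightly lower as a list after #1 siHOTAIR, and no member differed by 1.5-fold. Their median log2 ratio was -0.10 (0.934-fold), with quartiles of -0.21 and 0.09, while the median of the 13014 named genes compared was 0.02. When the arrays were scaled to the spike-in RNA, these medians became -0.00 and 0.11, and their difference of -0.12 was the same. Ratios below 0 were found for 30 of 47 members (63.8%), against 47.7% of all named genes compared. The members ranged from -0.58 for PRIM1, the catalytic subunit of primase, to 0.40 for ORC1, the largest subunit of the origin recognition complex. In bulk RNA, fewer cells in S phase and less of these transcripts per cell cannot be told apart.

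At the 2-fold threshold of the study's methods, 0 of 47 members were higher and 0 were lower, where 2.74% and 3.41% of all named genes compared were higher and lower. At 1.5-fold the members again gave 0 and 0, against 8.12% higher and 8.71% lower over all genes. Among the 9938 genes well above background on both arrays and within the members' range of signal, 5.93% were at least 1.5-fold higher and 5.24% at least 1.5-fold lower. The SD of the log2 ratio over genes was 0.23 for the members and 0.39 for those 9938 genes. PRIM1 lay just inside the 1.5-fold line of 0.585 on the log2 scale.

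Small differences were nevertheless measured with some precision, since the measurement SD of a member's ratio had a median of 0.06 and ranged from 0.02 to 0.16. More than 2 measurement SDs separated 21 members (44.7%) from 0 on the lower side, against 25.5% of all named genes compared. On the higher side there were 8 members (17.0%), against 28.5% of all genes, and the remaining 18 lay within 2 measurement SDs. The median measurement SD was larger over all named genes compared (0.10) and over the genes within the members' range of signal (0.09). Members thus passed the line of 2 SDs at smaller ratios, and no share was counted within that range. All 21 were below 0 and all 8 were above 0 under each of the 12 alternative ways of processing that gave a value; MCM2, MCM6, CDC45 and TYMS had none without the upper rows of the array. Of the 42 brightest probes with at least 2 spots, 24 had every spot below 0, 11 had every spot above 0 and 7 had spots on both sides. Neither the side of the spots nor that under the alternatives was counted over all named genes, so these counts describe the members only.

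**Figure D1:**
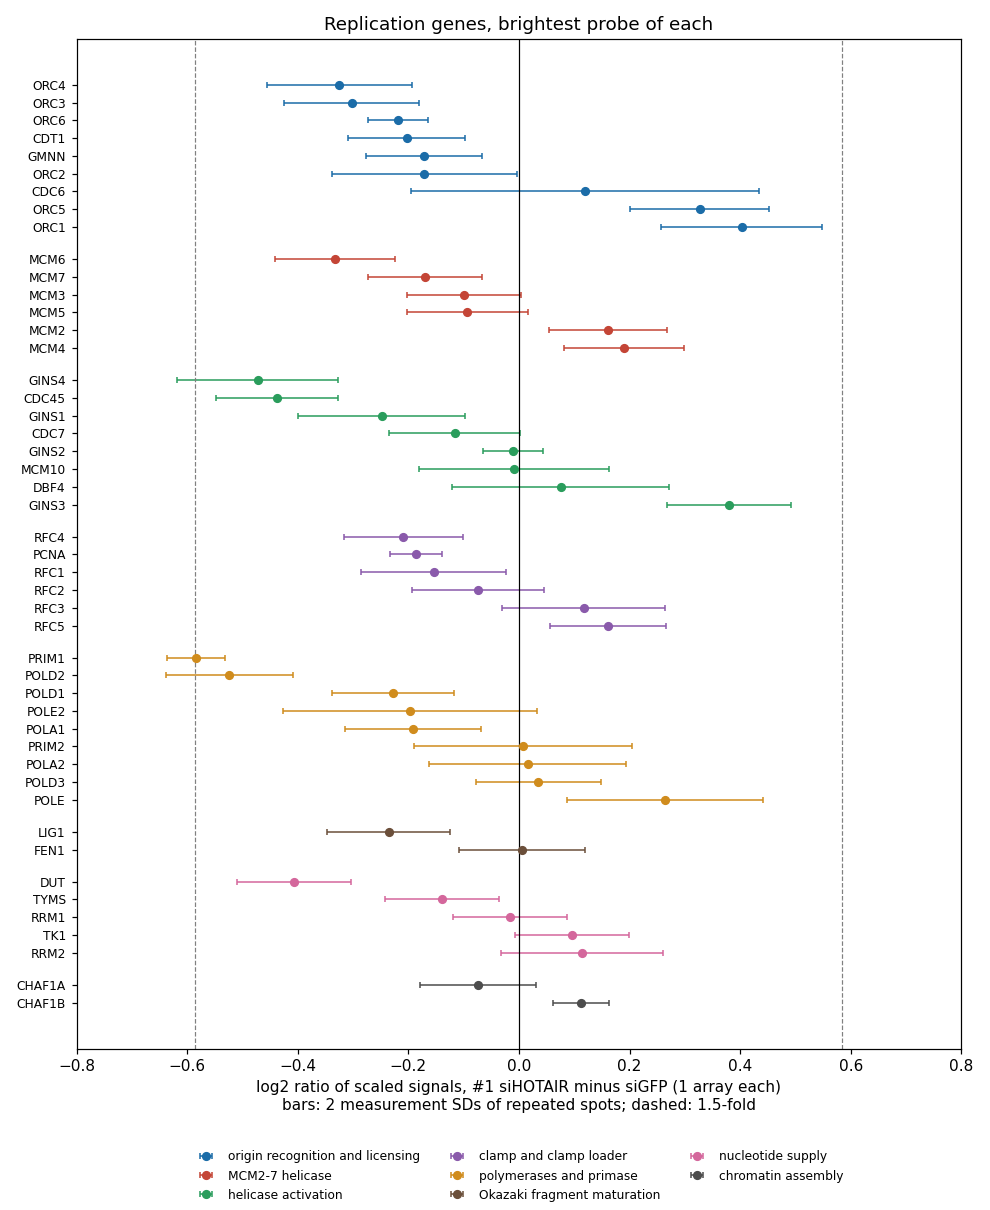
Log2 ratio of #1 siHOTAIR over siGFP (x axis, scaled signals, 1 array each) of the brightest probe of the 47 replication genes (y axis), coloured by role, with bars of 2 measurement SDs of repeated spots and dashed lines at 1.5-fold. The points run from -0.58 for PRIM1 to 0.40 for ORC1, every one inside the dashed lines. All 8 groups hold genes on both sides of 0, though the bars of some, such as FEN1, cross 0. Of all named genes compared, 47.7% were below 0.

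**Figure D2:**
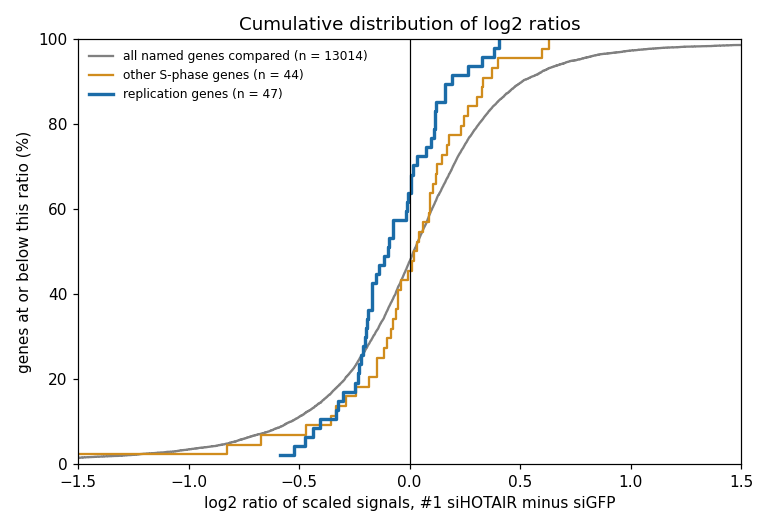
Cumulative share of genes (y axis, percent) at or below each log2 ratio (x axis) for the 47 replication genes, 44 other S-phase genes and the 13014 named genes compared; ratios beyond 1.5 are outside the axis. The curve of the replication genes is steeper than that of all genes (SD over genes 0.23 against 0.59) and lies to its left around 0, with medians of -0.10 and 0.02.

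Among the genes that recognise and license origins, 6 of 9 had ratios below 0 and the median was -0.17. ORC1, the subunit that binds and hydrolyses ATP to load the helicase, gave the highest ratio of all members. Its signal was 920 with #1 siHOTAIR and 674 with siGFP, a log2 ratio of 0.40 with a measurement SD of 0.07, and its 2 spots gave 0.34 and 0.47. ORC5 was higher as well, with signals of 1573 and 1215, a log2 ratio of 0.33 (SD 0.06) and a second probe at 0.36. The other subunits of the complex lay on the opposite side of 0. ORC3 read 1482 against 1770, a log2 ratio of -0.30 with both spots at -0.30. ORC6, the smallest subunit, read 1912 against 2155, a log2 ratio of -0.22, and each of its 9 spots was below 0, from -0.34 to -0.12. ORC2 gave -0.17 on both of its probes.

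ORC4 is less certain, because its probes disagreed. The brighter probe read 1074 with #1 siHOTAIR and 1303 with siGFP, a log2 ratio of -0.32. The dimmer probe read 175 and 135, a log2 ratio of 0.32. The gap of 0.65 had an SD of 0.16, and ORC4 was the only one of 11 members with several probes above background on both arrays whose probes differed by more than 2 SDs. Signs also differed for CHAF1A and MCM5, whose probes were 0.08 and 0.10 apart.

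The helicase loader CDT1 was lower by a small amount, and its inhibitor geminin was lower on average but not in both spots. CDT1 read 8329 with #1 siHOTAIR and 9288 with siGFP, a log2 ratio of -0.20 (SD 0.05). GMNN, which encodes geminin, read 8824 and 9624, a log2 ratio of -0.17, with 1 spot at -0.37 and the other at 0.02. Its own spots had an SD of 0.26 with #1 siHOTAIR, wider than the measurement SD of 0.05 that places GMNN among the 21 lower members. CDC6, the ATPase that acts with CDT1, read 136 and 122, and its log2 ratio of 0.12 lay within the measurement SD of 0.16.

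The 6 subunits of the MCM2-7 helicase were divided. MCM6 was the lowest, at 5494 with #1 siHOTAIR and 6702 with siGFP, a log2 ratio of -0.33 with spots at -0.37 and -0.29. MCM7 read 54237 against 59074, a log2 ratio of -0.17, while its second probe was at -0.00. MCM3 (-0.10) and MCM5 (-0.09) lay within 2 measurement SDs, and MCM5 turned to 0.00 when spike-in RNA set the scale. MCM4 and MCM2 lay on the other side of 0. MCM4 read 6252 against 5311, a log2 ratio of 0.19 with both spots at 0.19, and MCM2 read 7597 against 6582, a log2 ratio of 0.16 with spots at 0.10 and 0.22.

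The factors that turn the loaded ring into an active helicase held some of the largest differences in both directions. GINS4 read 24137 with #1 siHOTAIR and 32436 with siGFP, a log2 ratio of -0.47 (SD 0.07) from 1 spot. CDC45, which joins GINS on the ring, read 4076 against 5345, a log2 ratio of -0.44 (SD 0.06) with spots at -0.46 and -0.41. GINS1 read 6852 against 7883, a log2 ratio of -0.25 from 1 spot. These were the 3 lower members of the group beyond 2 measurement SDs. GINS3, from the same complex as GINS1 and GINS4, read 3970 against 2956, a log2 ratio of 0.38 (SD 0.06) with spots at 0.35 and 0.41. GINS2, the remaining subunit, was at -0.01, and of the 8 of its spots measured on both arrays 4 were above 0 and 4 below. MCM10, a scaffold of the early fork, was also at -0.01, with spots at -0.14 and 0.13.

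CDC7 and its activator DBF4 form the kinase that phosphorylates the MCM ring. CDC7 read 1944 with #1 siHOTAIR and 2042 with siGFP, a log2 ratio of -0.12 within 2 measurement SDs. DBF4 read 980 against 901, a log2 ratio of 0.08, also within 2 SDs. A second, dim probe of DBF4 read 43.5 against 29.2 and was well above background on 1 array only. Its measured log2 ratio was 0.53 (SD 0.20), with spots at 0.27 and 0.78, where the bright probe showed no such difference.

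PCNA, the sliding clamp that tethers polymerases to DNA, was lower in every spot. Its signal was 7737 with #1 siHOTAIR and 8527 with siGFP, a log2 ratio of -0.19 with a measurement SD of 0.02, or 87.9% of the siGFP level, and its 10 spots ran from -0.23 to -0.12. A second probe with 1 spot gave -0.11. Replication factor C loads the clamp, and its subunits were divided: RFC4 (-0.21) and RFC1 (-0.15) were lower, RFC5 (0.16) was higher, and RFC2 (-0.07) and RFC3 (0.12) lay within 2 measurement SDs. RFC5 read 9064 against 7851, and its 2 spots both gave 0.16.

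PRIM1, which synthesises the RNA primer of every new strand, had the lowest ratio of the list. Its signal was 1688 with #1 siHOTAIR and 2451 with siGFP, a log2 ratio of -0.58 with a measurement SD of 0.03, or 66.7% of the siGFP level. All 10 spots lay below 0, between -0.63 and -0.52, so no spot overlapped with those of PCNA or ORC6. PRIM2, the regulatory subunit that partners PRIM1, did not share this ratio. It read 960 against 925, a log2 ratio of 0.01 from 1 spot, with a dim second probe at 0.15. The dimmest probe of PRIM2 read 70.9 against 26.9 and was well above background on 1 array, at least 2.40-fold higher with #1 siHOTAIR, unlike the brighter probes. In the polymerase that extends the primer, POLA1, the catalytic subunit, was at -0.19 (spots -0.26 and -0.12) and POLA2 at 0.02.

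**Figure D3:**
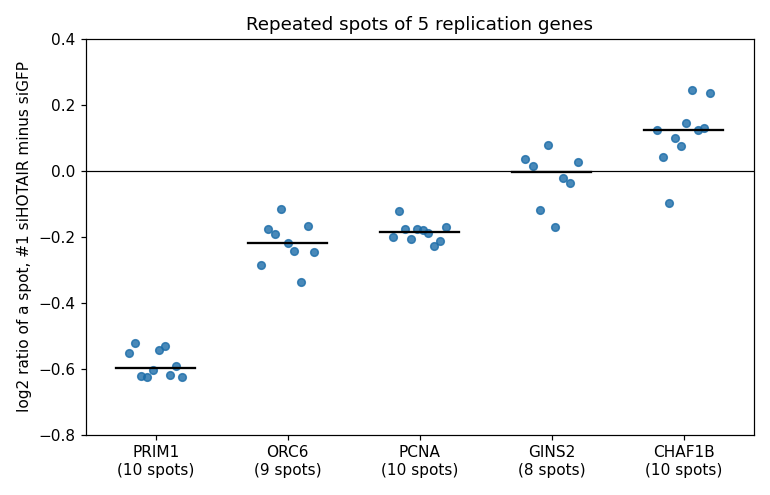
Log2 ratio of #1 siHOTAIR over siGFP of single spots (y axis) for the 5 replication genes whose brightest probe was printed 10 times. The x axis gives each gene with the number of spots measured on both arrays. Each point is a spot and the line is the median. All spots of PRIM1, ORC6 and PCNA lie below 0, those of GINS2 lie on both sides, and 9 of 10 of CHAF1B lie above 0.

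DNA polymerase delta, which copies the lagging strand, was lower in 2 of the 3 subunits on the list. POLD2, an accessory subunit, read 2093 with #1 siHOTAIR and 2915 with siGFP, a log2 ratio of -0.52 (SD 0.06), or 69.5% of the siGFP level, with spots at -0.55 and -0.50. POLD1, the catalytic subunit, read 4158 against 4716, a log2 ratio of -0.23 with spots at -0.37 and -0.09. POLD3 was at 0.03. In DNA polymerase epsilon, which copies the leading strand, the catalytic subunit POLE was the higher one. POLE read 480 against 387, a log2 ratio of 0.26 (SD 0.09), and its second probe gave 0.28. Its partner POLE2 read 204 against 227, a log2 ratio of -0.20 within 2 measurement SDs.

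LIG1, the ligase that seals Okazaki fragments, read 3861 with #1 siHOTAIR and 4405 with siGFP, a log2 ratio of -0.24 with spots at -0.31 and -0.16. FEN1, the nuclease that trims the flaps before ligation, was at 0.01. Among the enzymes of nucleotide supply, DUT stood lowest. DUT, the dUTPase that keeps uracil out of DNA, read 12834 against 16484, a log2 ratio of -0.41 (SD 0.05), and its second probe gave -0.55. TYMS, which makes thymidylate, read 31104 against 33172, a log2 ratio of -0.14 with both spots at -0.14. The ribonucleotide reductase subunits RRM1 (-0.02) and RRM2 (0.11) and the thymidine kinase TK1 (0.10) lay within 2 measurement SDs. The histone chaperone CAF-1 deposits histones behind the fork. Its subunit CHAF1B read 3414 against 3060, a log2 ratio of 0.11 (SD 0.03) with 9 of 10 spots above 0, while CHAF1A was at -0.07.

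Set side by side, the groups had medians of -0.17 for origin recognition and licensing (9 genes), -0.10 for MCM2-7 (6), -0.06 for helicase activation (8), -0.11 for the clamp and its loader (6), -0.19 for polymerases and primase (9), -0.12 for Okazaki fragment maturation (2), -0.02 for nucleotide supply (5) and 0.02 for chromatin assembly (2). When spike-in RNA set the scale, the medians of helicase activation and nucleotide supply turned to 0.03 and 0.08. Those of MCM2-7, the clamp group and Okazaki fragment maturation were then -0.00, -0.02 and -0.02. The median of nucleotide supply was also above 0 with no scaling (0.03) and without the upper rows of the array (0.05). Without those rows, polymerases and primase were at -0.05 and Okazaki fragment maturation, from LIG1 alone, at -0.31. The median of chromatin assembly was below 0 with the median of detected probes (-0.01) and quantile normalization (-0.00). The group medians spanned less than the widest gaps inside the complexes, but medians vary less than single extreme genes, so nothing is drawn from this. In each of 10 complexes the subunits lay on both sides of 0, where 47.7% of all named genes compared were below 0. How often other sets of genes lie on both sides was not counted, so this describes the members only. For DNA polymerases alpha and delta, ribonucleotide reductase and CAF-1 it changed with the processing. The ratios of POLA2, PRIM2, POLD3, RRM1 and DBF4 lay within their measurement SD of 0. Those of POLE2, CHAF1A, CDC7 and RRM2 lay within 2 measurement SDs. In 8 complexes the gap between the highest and the lowest subunit exceeded 2 measurement SDs of that gap. The gap was 0.85 (SD 0.09) between GINS3 and GINS4, 0.73 (SD 0.10) between ORC1 and ORC4, 0.60 (SD 0.09) between POLA2 and PRIM1, 0.56 (SD 0.08) between POLD3 and POLD2, and 0.52 (SD 0.08) between MCM4 and MCM6. Those pairs were picked as the extremes of their complexes, so the gaps are a description. A gap between extremes passes 2 SDs more easily than one between genes named beforehand. Of all named genes compared, 28.5% were more than 2 measurement SDs above 0 and 25.5% below it. How often other sets of genes hold such a gap was not counted. Between probes of the same gene, the gap was at most 0.16 in 10 of the 11 members with several probes above background on both arrays, and 0.65 in ORC4.

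Since E2F factors drive many of these genes, RefSeq promoters of the GRCh38.p14 build, from 250 bases before to 50 after each annotated start, were searched for the letters TTTCCCGC, TTTCGCGC, TTTGCCGC and TTTGGCGC on both strands. Promoters were at hand for 43 of the 47 members, without MCM4, MCM5, GINS4 and POLD3. At least 1 match stood in 21 of the 43 (48.8%), against 6.51% of 10396 compared genes with a promoter. Counted by promoter, matches stood in 21 of 58 (36.2%), against 3.31% of all 35116 promoters. Stretches are shown for 5 members that were lower by more than 2 measurement SDs and for POLE, which was higher, with the E2F letters in capitals and the gene's own strand written 5′ to 3′.

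DUT, chr15:48332125-48332196, plus strand: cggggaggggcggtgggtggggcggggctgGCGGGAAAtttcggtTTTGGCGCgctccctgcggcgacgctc
MCM6, chr2:135876492-135876625, minus strand: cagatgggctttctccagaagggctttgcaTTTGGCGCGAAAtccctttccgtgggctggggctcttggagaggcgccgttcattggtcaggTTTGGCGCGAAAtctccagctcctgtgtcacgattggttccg
ORC3, chr6:87590093-87590134, plus strand: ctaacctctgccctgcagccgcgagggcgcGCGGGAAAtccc
CDT1, chr16:88803724-88803788, plus strand: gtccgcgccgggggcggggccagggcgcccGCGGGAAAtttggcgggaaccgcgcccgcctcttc
PCNA, chr20:5126644-5126711, minus strand: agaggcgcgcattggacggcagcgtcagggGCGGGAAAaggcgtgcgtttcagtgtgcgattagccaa
POLE, chr12:132687343-132687390, minus strand: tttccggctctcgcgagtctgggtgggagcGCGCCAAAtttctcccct

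All 6 stretches lie before the annotated start. The MCM6 stretch holds 4 matches, as overlapping pairs on opposite strands, the first of them starting 152 bases before the start. DUT holds 2 matches, starting 42 and 27 bases before the start. The single matches begin 12 bases before the start in ORC3, 35 in CDT1, 59 in PCNA and 18 in POLE. These stretches share the letters while DUT (-0.41), MCM6 (-0.33), ORC3 (-0.30), CDT1 (-0.20) and PCNA (-0.19) had ratios below 0 and POLE (0.26) had one above 0.

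The median log2 ratio was -0.17 over the 21 members with an E2F match, of which 15 were below 0, and -0.05 over the 22 without, of which 13 were below 0. Over all compared genes with a promoter the median was 0.02 both with and without a match. The members at either end of the list, PRIM1 and ORC1, had no match in the window searched, and neither had POLD2, CDC45 or ORC5. The letters CCAAT stood in 24 of the 43 members (55.8%), PRIM1 and ORC1 among them, against 43.3% of compared genes. The letters TTTGAA or TTCGAA, found in promoters of G2/M genes, stood in 4 of 43 (9.30%), against 15.5% of compared genes. A match is a description of letters and not of factor binding.

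Another 44 genes of S phase, which hold the E2F factors, their cyclin partners, single-strand binding proteins and accessory factors of the fork, had a median log2 ratio of 0.03, which became -0.00 with the median of detected probes. Of these, 24 were above 0 and 20 below, 11 were more than 2 measurement SDs higher and 12 lower. At 1.5-fold, 2 were higher and 3 lower. Both lower counts include TK2, which was well above background with siGFP only and whose fold has no bound above 1. E2F2, an activating E2F, read 861 with #1 siHOTAIR and 1478 with siGFP, a log2 ratio of -0.83 (SD 0.07) with spots at -0.85 and -0.80. E2F1, another activator, read 1599 against 1232, a log2 ratio of 0.33 (SD 0.03) with all 10 spots above 0. E2F7, a repressor of E2F targets, was at 0.40 on its brighter probe and 0.07 on its dimmer one, and E2F3 (-0.11) and E2F8 (0.04) differed less. The E2F genes lay on both sides of 0, as the replication genes did.

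Replication protein A coats the single strands that the helicase exposes. Its smallest subunit RPA3 read 12584 with #1 siHOTAIR and 19406 with siGFP, a log2 ratio of -0.67 (SD 0.05) with spots at -0.69 and -0.65. RPA2 was at -0.35, with a second probe at -0.38, and RPA1 at 0.03. Cyclin E1 (CCNE1) was at 0.23, and cyclin E2 (CCNE2, -0.04) and cyclin A2 (CCNA2, -0.01) lay within 2 measurement SDs on their brightest probes. A dimmer probe of CCNE2 differed, at 312 with #1 siHOTAIR and 229 with siGFP. Its log2 ratio was 0.40 (SD 0.14) from 1 spot. MCM8, which acts with MCM9 in recombination repair, read 2076 against 1329, a log2 ratio of 0.60 from 1 spot. MCM9 read 60.2 against 37.6, a log2 ratio of 0.63 from 1 dim spot (SD 0.28). TK2, the mitochondrial thymidine kinase, read 9.32 against 31.3.

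**Figure D4:**
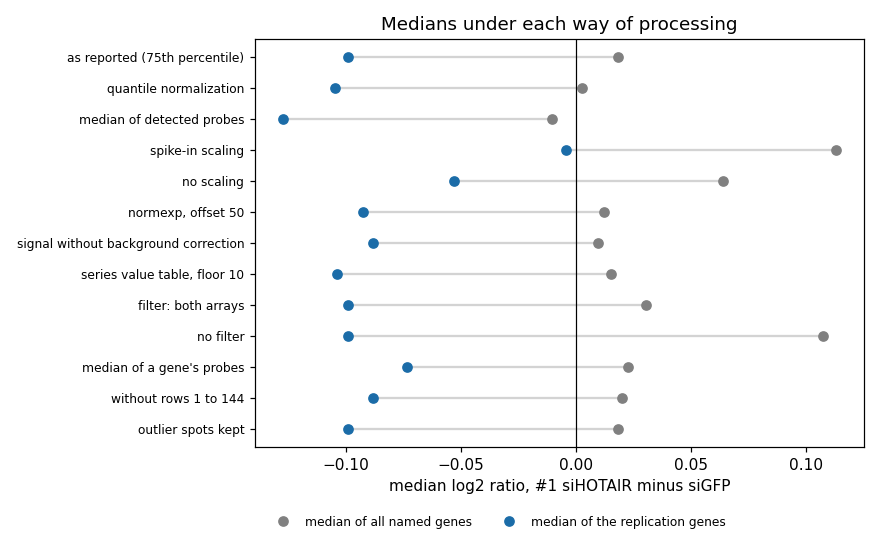
Median log2 ratio of #1 siHOTAIR over siGFP (x axis) of the 47 replication genes (blue; 41 without the upper rows of the array) and of all named genes (grey) under each way of processing (y axis). The replication genes lie left of all genes in every setting, by 0.12 as reported and by up to 0.21 when probes at background are kept, whereas the distance of both medians from 0 moves with the scaling.

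The median of the replication genes was below 0 and below that of all named genes in all 13 settings, the reported one included, although it was -0.00 when spike-in RNA set the scale. The median of all named genes was above 0 except with the median of detected probes (-0.01). Relative to the median of all named genes, 31 members were below and 11 above in every setting in which they were measured. How many of all named genes kept to one side was not counted. MCM2, MCM3, MCM6, CDC45, FEN1 and TYMS had no value without the upper rows of the array and were measured in 12 settings. The remaining 5 members (GINS2, DBF4, PRIM2, POLD3 and TK1) changed sides.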

How the data were processed

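Total RNA of #1 siHOTAIR-transfected and siGFP-transfected SBC-3 cells was labelled with Cy3 and hybridised by the authors to one-colour Agilent SurePrint G3 Human arrays, 1 per condition. The authors deposited the scanner output (Agilent Feature Extraction 10.10.1.1, per the labels), in which the processed signal is an intensity after background subtraction and correction of trends across the array, not normalized between arrays. The deposited series value table held the same intensity as the background-subtracted signal (largest difference 0).

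Of 62976 spots per array, 58717 were not controls. Outlier spots were left out (3 of the members), signals were converted to log2, the 75th percentile of each array was subtracted, and spots of a probe were averaged. Probe accessions were named through RefSeq GRCh38.p14 without versions. A gene was represented by its brightest probe well above background, in at least 50% of its spots, on at least 1 array; this left 13014 named genes. The measurement SD was read at 6 levels of signal from probes printed 10 times, divided by the square root of the number of spots, with both arrays combined in quadrature. Where only 1 array was above background, the bound used the lowest signal well above background on the other (37.3 and 28.6) or the probe's own, whichever was higher. The number of arrays limits the precision. Every member was named, with 5 at each end in more detail. Of the other S-phase genes, those past 1.5-fold and the E2F, cyclin and RPA genes were named. The members, lists and motifs were chosen with earlier results of these data known, and the complexes and the pairs of subunits were chosen after their values were seen. Another marker gene is not reported here.

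Python 3.11.15, pandas 2.3.3, numpy 2.4.6, R 4.3.3 and limma 3.58.1 (normexp) were used, and the calculation was tested on simulated data. The 12 alternatives covered scaling (quantile, median of detected probes, spike-in RNA, none), background (normexp with an offset of 50, none), the values of the series table floored at 10, filters, the median of a gene's probes, array rows and outlier spots.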

Additional observations from a re-analysis of the deposited data

How the results depend on the processing

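No member passed 2-fold in either direction under any of the 12 alternatives. The median of the replication genes, -0.10 as reported, moved to -0.0042 with scaling to the spike-in RNA, where 23 members were above 0 in place of 17 and the median of all named genes was 0.11. The difference between the members and all named genes, -0.12 as reported, was -0.2063 with no filter on dim probes, which adds probes at background to the comparison, and between -0.13 and -0.10 under the other alternatives. PRIM1 became the 1 member at least 1.5-fold lower with quantile normalization (-0.62), the median of detected probes (-0.61), the series value table (-0.59) and without the upper rows of the array (-0.59). Without those rows, 41 members were left and 1, DBF4, was at least 1.5-fold higher (0.78), because its dim probe was the only one left. ORC4 was at -0.00 with the median of its probes, and the gap between ORC1 and ORC4 was then 0.40. The gap between POLE and POLE2 was 0.28 without the upper rows. Scaling to the spike-in RNA moved 43 of 47 members by more than their measurement SD.

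No paired analysis was possible because each condition had 1 array. The measurement SD covers spots within an array, so differences between cultures were not measured, and ratios from 1 spot or from signals near background, such as those of MCM9 and the dim probes of DBF4 and PRIM2, are the least certain.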
